A study of Mus musculus with 37 samples.

Results

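The nuclear genes of respiratory complexes III, IV and V were followed in gastrocnemius muscle of mice lacking Nampt in skeletal muscle (KO, labelled SMNKO) and of wild-type mice (WT). Nampt makes the NAD+ precursor nicotinamide mononucleotide in the salvage pathway. Genes were taken as members when they were protein-coding, their mouse symbol began with Uqcr, Cox4, Cox5, Cox6, Cox7, Cox8, Cyc1 or Atp5, and their mean over all 37 libraries was at least 1 CPM (counts scaled to a common library total). Of 50686 genes in the counts table, 44 carried such a symbol and 41 were members, 9 of complex III, 15 of complex IV and 17 of complex V. Cox6b2 was left out at a mean of 0.335 CPM, Cox7b2 and Cox8c were left out at 0 CPM, and Cox4i2, at 1.87 CPM, was the lowest member. All 41 members were among the 16728 genes that passed the filter on low counts.

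The groups were KO and WT muscle at 2 weeks of age (5 and 6 libraries), 4 weeks (5 and 6), 6 weeks (2 and 2) and 8 weeks (6 and 5). The strain, the promoter behind the muscle-specific deletion and the alleles carried by the WT mice are not given in the sources used here. Each library carries its own number in the labels, which is used below (KO 8, WT 34), and belonged to sequencing pool A or B. Sex was labelled at 4, 6 and 8 weeks. WT 1, WT 3, WT 4 and KO 11 (4 weeks), KO 19 (6 weeks) and WT 35 (8 weeks) were labelled female, the others male. At 2 weeks pool A held 4 KO and 2 WT libraries, and pool B 1 KO and 4 WT. Sex and pool were thus not balanced between genotypes. The p-values weigh differences against the spread between libraries. In the edgeR model all 8 groups share 1 estimate of the spread per gene, also at 6 weeks.

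Complex III (ubiquinol-cytochrome c reductase) passes electrons from ubiquinol to cytochrome c, complex IV (cytochrome c oxidase) passes them on to oxygen, and complex V (ATP synthase) uses the resulting proton gradient to make ATP. A few subunits of complexes III and IV and of ATP synthase are encoded in mitochondrial DNA and all others in the nucleus. Several complex IV subunits exist as a heart and skeletal muscle isoform and a ubiquitous isoform: Cox6a2 and Cox6a1, Cox7a1 and Cox7a2, Cox8b and Cox8a. In rodent muscle the muscle isoforms replace much of the ubiquitous ones during development.

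Because the results contrast the muscle with the ubiquitous isoforms, the promoters of the isoform genes are shown. They run from 250 bases before to 50 bases after the annotated start (RefSeq, GRCm38.p6, the same assembly as mm10) and are written 5′ to 3′ on the strand of the gene; Cox6a2 has no entry in the table used. Capitals mark matches on either strand to the ETS motif CCGGAAG, the NRF1 core GCGCANGCG, the YY1 motif AAGATGGC, the estrogen-related receptor (ERR) site CAAGGTCA and the E-box CANNTG. The ubiquitous isoforms come from chr5:115348909-115349208 (Cox6a1, minus strand), chr9:79759804-79760103 (Cox7a2, minus strand) and chr19:7217567-7217866 (Cox8a, minus strand). The muscle isoforms come from chr7:30183921-30184220 (Cox7a1, plus strand) and chr7:140900397-140900696 (Cox8b, minus strand).
Cox6a1: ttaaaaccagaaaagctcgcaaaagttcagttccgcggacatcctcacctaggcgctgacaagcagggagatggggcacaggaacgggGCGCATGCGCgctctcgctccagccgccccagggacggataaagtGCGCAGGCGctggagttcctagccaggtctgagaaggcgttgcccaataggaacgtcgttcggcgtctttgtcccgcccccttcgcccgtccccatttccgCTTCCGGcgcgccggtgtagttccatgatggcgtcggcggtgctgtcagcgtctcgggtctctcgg
Cox7a2: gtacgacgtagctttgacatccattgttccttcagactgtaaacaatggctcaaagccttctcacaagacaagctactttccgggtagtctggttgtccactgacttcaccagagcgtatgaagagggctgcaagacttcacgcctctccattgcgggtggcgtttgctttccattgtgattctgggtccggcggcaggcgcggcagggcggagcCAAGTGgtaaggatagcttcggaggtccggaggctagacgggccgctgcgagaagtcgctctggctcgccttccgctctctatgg
Cox8a: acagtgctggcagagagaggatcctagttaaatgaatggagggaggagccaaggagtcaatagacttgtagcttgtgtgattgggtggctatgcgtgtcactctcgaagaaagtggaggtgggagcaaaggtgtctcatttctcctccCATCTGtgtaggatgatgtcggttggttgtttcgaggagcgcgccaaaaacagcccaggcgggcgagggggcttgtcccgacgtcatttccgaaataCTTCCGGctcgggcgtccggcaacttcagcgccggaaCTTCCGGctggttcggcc
Cox7a1: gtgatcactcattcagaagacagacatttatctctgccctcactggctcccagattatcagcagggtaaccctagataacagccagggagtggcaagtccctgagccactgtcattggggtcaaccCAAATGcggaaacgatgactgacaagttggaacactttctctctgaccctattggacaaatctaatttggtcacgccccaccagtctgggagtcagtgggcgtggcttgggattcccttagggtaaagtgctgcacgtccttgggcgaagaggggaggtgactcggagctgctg
Cox8b: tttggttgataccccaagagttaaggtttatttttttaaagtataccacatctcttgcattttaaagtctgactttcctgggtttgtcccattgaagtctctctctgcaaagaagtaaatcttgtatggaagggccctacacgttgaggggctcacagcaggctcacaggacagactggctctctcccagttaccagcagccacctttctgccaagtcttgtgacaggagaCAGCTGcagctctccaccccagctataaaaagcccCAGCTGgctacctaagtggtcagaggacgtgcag

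Positions are given for the first base of a match, counted from the annotated start as 0. The Cox6a1 promoter held an ETS match at -16 and NRF1 cores at -162, -161 and -117, of which the first pair overlap and form the longer run in capitals. The Cox8a promoter held ETS matches at -5 and 32 and an E-box at -102. Cox7a2 (E-box at -35), Cox7a1 (E-box at -124) and Cox8b (E-boxes at -19 and 16) held none of the other motifs in this window. Over the 31 members with an entry, which gave 34 promoters, 29.4% held an ETS match, against 8.86% of all 32851 promoters in the table. The NRF1 core was in 29.4% of the members' promoters against 6.25% of all, YY1 in 8.82% against 2.75%, the ERR site in 5.88% against 1.56% and the E-box in 73.5% against 72.3%. These matches describe the letters in the window and were not tested for binding.

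Library totals ran from 5192700 to 23134727 counts (median 16827002), and the scaling factors (TMM, which set the trimmed mean log-ratio between libraries to 0) ran from 0.443 to 1.59. At 8 weeks these factors lay between 1.22 and 1.59 in KO libraries and between 0.443 and 1.08 in WT libraries, so that the scaling bears on every 8-week value. Nampt itself was lower in KO muscle at each age, with log2 fold changes of -0.96, -1.03, -2.07 and -2.05 at 2, 4, 6 and 8 weeks. Ribosomal RNA took 29.3% of the counts in KO 8 (4 weeks), 11.6% and 8.49% in WT 3 and WT 4 (4 weeks) and 20.3% and 23.1% in WT 34 and WT 35 (8 weeks), against at most 1.24% in every other library. The heavy chain of slow fibres, Myh7, reached 9293 CPM in WT 36 (8 weeks), which stood apart, and 3 libraries went against their labelled sex (KO 12, KO 42 and WT 4).

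At 2 and 4 weeks no member passed the test between KO and WT muscle. A gene was called when its adjusted p lay below 0.05 (edgeR quasi-likelihood F-test, Benjamini-Hochberg over all 16728 genes). At 2 weeks 0 members were called, while 0.0359% of all genes were called higher and 0.0239% lower; at 4 weeks 0 members were called, against 2.46% of all genes higher and 3.19% lower. At an unadjusted p under 0.05 there were 2 members at 2 weeks and 2 at 4 weeks; DESeq2 called 0 at 2 weeks and 1 at 4 weeks. The members' median log2 fold change was 0.10 at 2 weeks, beside -0.02 for all genes, and -0.02 at 4 weeks, beside -0.00 for all genes. Their summed level averaged 13776 CPM in KO and 13521 CPM in WT muscle at 2 weeks, and 16404 CPM in KO and 16321 CPM in WT muscle at 4 weeks.

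**Figure D1:**
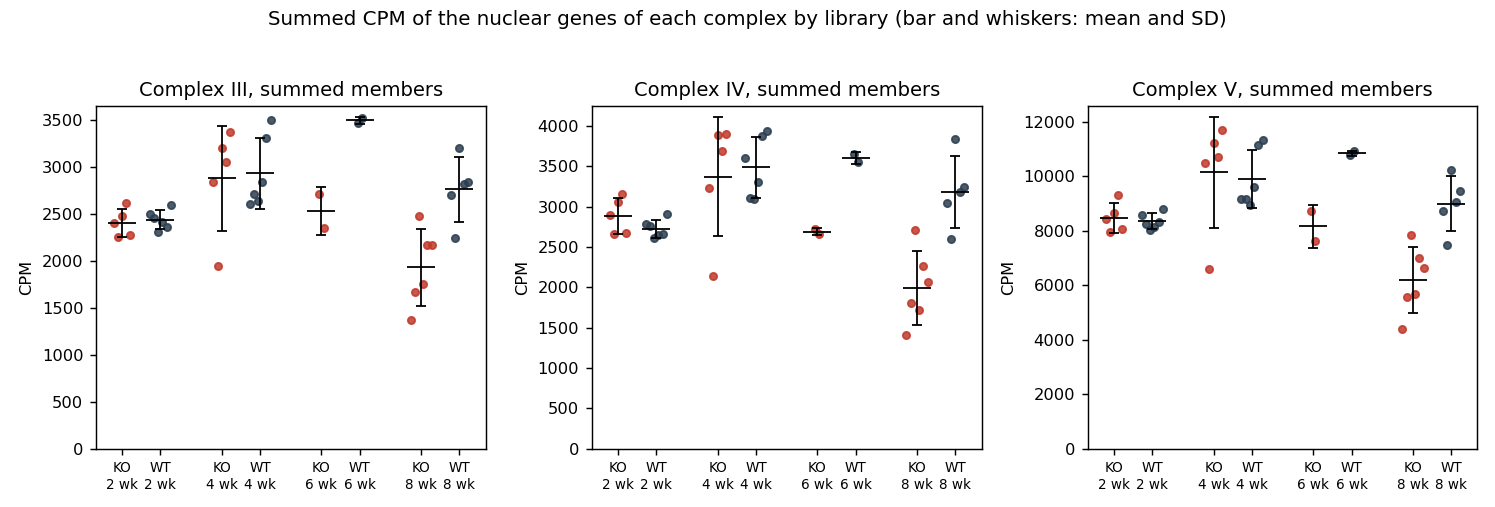
Summed CPM of the members of complex III, IV and V in 3 panels, 1 point per library, KO (red) left of WT (dark) at each age, with bars and whiskers at the mean and SD. The KO and WT points overlap at 2 and 4 weeks and are apart at 6 weeks; at 8 weeks the KO points lie between 4410 and 7831 CPM for complex V and the WT points between 7499 and 10235 CPM.

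At 6 weeks, with 2 libraries per group, the summed level of the members was 14158 and 12630 CPM in the KO libraries against 17896 and 17994 CPM in the WT libraries, with no overlap. In 36 of the 41 members both KO libraries lay below both WT libraries, an ordering that 26.5% of all tested genes also showed. The members' median log2 fold change was -0.43, beside 0.03 for all genes. The library with 14158 CPM, KO 19, had 148 CPM of summed macrophage markers, and the one with 12630 CPM, KO 20, had 1406 CPM of them, against 152 and 172 CPM in the WT libraries. In RNA from whole muscle, fewer muscle fibres and less RNA per fibre cannot be told apart.

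Only 3 members passed the test at 6 weeks, all lower in KO muscle, and none was called higher (0 lower and 0 higher with library sizes alone), while 4.34% of all genes were called lower and 5.33% higher. Atp5s, which encodes a small factor associated with ATP synthase rather than one of its core subunits, had 6.79 and 6.50 CPM in KO against 13.7 and 10.5 CPM in WT muscle (log2 fold change -0.87 ± 0.17 SE, edgeR adjusted p = 0.001723). Atp5g1, 1 of the genes for the identical c subunit of the rotor ring, had 245 and 190 CPM in KO against 376 and 340 CPM in WT muscle (-0.73 ± 0.23, adjusted p = 0.04115). Cox4i2, an oxygen-regulated isoform of subunit 4 best known from lung, had 1.10 and 1.03 CPM in KO against 2.20 and 3.59 CPM in WT muscle (-1.42 ± 0.47, adjusted p = 0.04717). The groups did not overlap in any of these genes. The calls of Cox4i2 and Atp5g1 were lost when any of the 4 libraries was left out, and that of Atp5s when KO 20 or WT 16 was left out. By setting, the count of members called ran from 0 (library sizes alone, pool B alone, or a fit of the 6-week groups only) to 9 (without the rRNA-rich libraries). The shares of all genes above belong to the TMM fit of all libraries.

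With TMM scaling, most genes of all 3 complexes were lower in KO muscle at 8 weeks, while a pair of ubiquitous complex IV isoforms was higher; with library sizes alone none was called lower. Of the 41 members 34 were called lower and 2 higher with TMM, against 26.3% of all genes lower and 26.2% higher. This direction turned with library sizes alone as the scaling (0 lower and 5 higher), where the median of all genes also rose. The share of all genes called in that setting is not given here. With TMM the members' median log2 fold change was -0.50, beside 0.03 for all genes. With library sizes alone the medians were 0.31 for the members and 0.82 for all genes, so that the difference between them was -0.51, against -0.53 with TMM. The summed level averaged 10116 ± 2066 CPM in KO (SD, n = 6) and 14943 ± 1787 CPM in WT muscle (SD, n = 5), and the ranges overlapped. In 10 members every KO library lay below every WT library, as in 10.7% of all tested genes; in none did every KO library lie above, an ordering seen in 13.5% of all tested genes. The 5 members not called were Cox7a2 (-0.24), Cox7a2l (0.07), Atp5e (-0.20), Atp5l (-0.26) and Atp5mpl (-0.15).

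**Figure D2:**
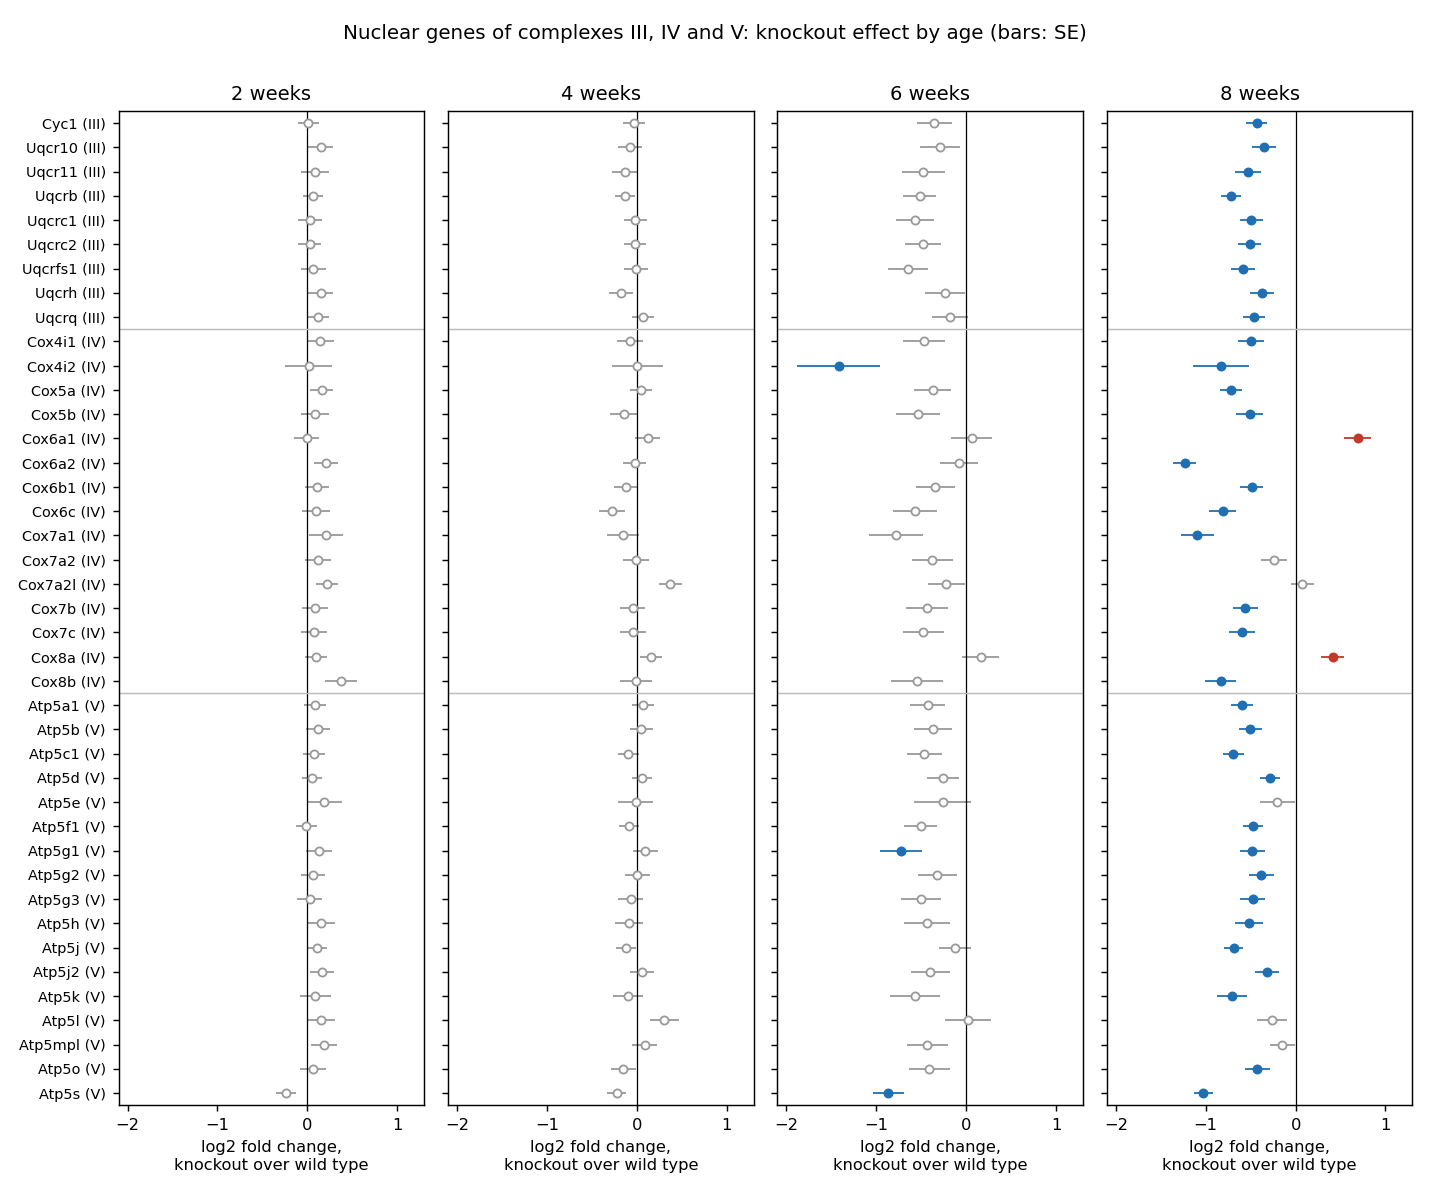
Log2 fold change, KO over WT, of each of the 41 members at each age, grouped by complex; bars are the SE, filled blue points were called lower, filled red points higher, and open grey points were not called. No point is filled at 2 and 4 weeks, 3 blue points at 6 weeks, and 34 blue and 2 red points (Cox6a1 and Cox8a) at 8 weeks. That direction turns with library sizes alone (0 lower, 5 higher), where the median of all genes also rises, to 0.82.

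All 9 members of complex III were called lower in KO muscle at 8 weeks, with log2 fold changes from -0.72 to -0.35 and a median of -0.50 (0 lower with library sizes alone). Uqcrb, a small subunit beside the ubiquinone site, had a lowest, median and highest value of 73.0, 98.9 and 120 CPM in the 6 KO libraries, against 147, 155, 164, 181 and 175 CPM in the WT libraries. Every KO library lay below every WT library (-0.72 ± 0.11, edgeR adjusted p = 2.45e-06). Uqcrfs1, the Rieske iron-sulfur protein that takes electrons from ubiquinol, had 159, 243 and 301 CPM as lowest, median and highest in KO muscle, against 341, 299, 424, 380 and 373 CPM in WT muscle (-0.59 ± 0.13, adjusted p = 0.0004202). Only the highest KO library of Uqcrfs1 reached the range of the WT libraries. Cyc1, the heme subunit cytochrome c1 that hands electrons to cytochrome c, averaged 227 ± 45.3 CPM in KO (SD, n = 6) and 310 ± 37.1 CPM in WT muscle (SD, n = 5), a log2 fold change of -0.43. The core proteins Uqcrc1 (-0.50 ± 0.13, adjusted p = 0.001543) and Uqcrc2 (-0.51 ± 0.12, adjusted p = 0.0007811) fell by nearly the same amount, as did the small subunit Uqcrq (-0.46 ± 0.12, adjusted p = 0.00177). Uqcrc2 overlaps Pdzd9 on the other strand, and 52.6% of the Uqcrb transcript's 38-base words also occur in other genes.

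Of the 15 members of complex IV 11 were called lower and 2 higher at 8 weeks, with a median of -0.56 (0 lower with library sizes alone). Among the subunits without a muscle isoform, Cox5a, which sits on the matrix side of the complex, had 120, 158 and 224 CPM as lowest, median and highest in KO muscle, against 260, 241, 277, 287 and 272 CPM in WT muscle, with no overlap (-0.72 ± 0.12, edgeR adjusted p = 1.146e-05). Cox6c had 128, 185 and 264 CPM as lowest, median and highest in KO muscle, against 269, 302, 402, 366 and 366 CPM in WT muscle (-0.81 ± 0.15, adjusted p = 2.636e-05). Its highest KO library stayed just under its lowest WT library. Cox4i1, the common isoform of the regulatory subunit 4, averaged 340 ± 76.9 CPM in KO (SD, n = 6) and 494 ± 101 CPM in WT muscle (SD, n = 5), a log2 fold change of -0.50. Its low isoform Cox4i2 had 0.854, 0.979 and 1.10 CPM as lowest, median and highest in KO muscle, against 3.48, 0, 2.44, 1.75 and 1.25 CPM in WT muscle. The WT values enclosed the KO values, and the call (-0.83) was lost without WT 34 or WT 36. Cox7a2l had a log2 fold change of 0.07 ± 0.13 and was not called. Of the 38-base words of Cox5a 40.95% and of Cox7c 54.1% also occur in other genes, and Cox5a overlaps Gm26631 on the other strand.

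Of the 17 members of complex V 14 were called lower at 8 weeks, with a median of -0.48 and a range from -1.03 to -0.15 (0 lower with library sizes alone). The catalytic head was lower in its main parts: Atp5a1 (alpha) averaged 1644 ± 279 CPM in KO (SD, n = 6) and 2521 ± 348 CPM in WT muscle (SD, n = 5), a log2 fold change of -0.60 ± 0.12 (edgeR adjusted p = 8.665e-05). Atp5b (beta) averaged 2118 ± 433 CPM in KO and 3043 ± 337 CPM in WT muscle. Both had KO libraries within the range of the WT libraries. For Atp5c1, the gamma subunit of the rotating stalk, the KO libraries had 281, 405 and 477 CPM as lowest, median and highest, against 576, 566, 729, 710 and 692 CPM in WT muscle, with no overlap (-0.69 ± 0.12, adjusted p = 7.219e-06). Atp5j, coupling factor 6 of the outer stalk, had 102, 132 and 158 CPM as lowest, median and highest in KO muscle, against 189, 246, 200, 232 and 201 CPM in WT muscle (-0.69 ± 0.11, adjusted p = 2.485e-06), and Atp5f1, subunit b of the same stalk, had a log2 fold change of -0.48 ± 0.11 (adjusted p = 0.000673). Neither overlapped between genotypes. The 3 genes for the c subunit, Atp5g1 (-0.48), Atp5g2 (-0.38) and Atp5g3 (-0.48), were all called lower, while the small membrane subunit gene Atp5l and the epsilon subunit gene Atp5e were not called.

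Atp5s had the lowest log2 fold change among the complex V genes at 8 weeks and one of the lowest levels. It had 5.41, 5.97 and 6.21 CPM as lowest, median and highest in KO muscle, against 11.7, 10.2, 9.30, 13.8 and 13.4 CPM in WT muscle (-1.03 ± 0.11, edgeR adjusted p = 2.116e-09). The groups were well apart, the KO libraries within 1 CPM of each other. Atp5s means in KO muscle were 4.65, 7.24, 6.64 and 5.88 CPM at 2, 4, 6 and 8 weeks, and in WT muscle 5.32, 8.57, 12.1 and 11.7 CPM. Of the 38-base words of Atp5g2 87.6%, of Atp5l 85.2%, of Atp5o 58.4%, of Atp5h 55.5% and of Atp5f1 43.8% also occur in other genes, and Atp5j overlaps Gabpa and Atp5f1 overlaps Wdr77 on the other strand, so that reads of these genes may have been divided or lost in counting.

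Of the 36 members called at 8 weeks, 30 were called whichever of the 11 libraries was left out; the other members lost the call in at least 1 case (Cox4i2, Uqcrh, Uqcr10, Atp5j2, Atp5d and Atp5g2). With pool A alone 5 members were called lower and 2 higher at 8 weeks, and the WT libraries of that pool at that age are the rRNA-rich WT 34 and WT 35. With pool B alone 37 members were called. The shares of all genes called in these refits are not given here.

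The muscle isoforms of complex IV were lower and 2 of their 3 ubiquitous partners higher in KO muscle at 8 weeks (with library sizes alone the muscle isoforms were not called and the same 2 ubiquitous ones were higher). Cox6a2 had 132, 204 and 311 CPM as lowest, median and highest in KO muscle, against 525, 476, 547, 471 and 430 CPM in WT muscle, with no overlap (-1.23 ± 0.13, edgeR adjusted p = 1.694e-09). Its partner Cox6a1 had 20.2, 27.6 and 31.5 CPM as lowest, median and highest in KO muscle, against 17.8, 11.1, 22.2, 15.6 and 14.9 CPM in WT muscle (0.69 ± 0.15, adjusted p = 0.0001893). Only the lowest KO library of Cox6a1 reached into the WT range. Cox6a2 and Cox6a1 encode a subunit that binds nucleotides and sets the activity of the oxidase. Cox6a2 overlaps Itgad on the other strand by 70 bases, and 18.9% of the 38-base words of Cox6a1 also occur in another gene.

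Cox7a1, which encodes a subunit at the dimer interface of the oxidase, had 58.7, 92.8 and 148 CPM as lowest, median and highest in KO muscle, against 209, 145, 285, 207 and 195 CPM in WT muscle (-1.09 ± 0.18, edgeR adjusted p = 8.201e-06). Cox7a2 had 88.5, 118 and 150 CPM in KO muscle, against 122, 110, 179, 148 and 157 CPM in WT muscle, and was not called (-0.24 ± 0.14, adjusted p = 0.1594). The groups overlapped in both, in Cox7a1 by 1 library on each side. Cox8b, the muscle isoform of the smallest subunit, had 82.2, 123 and 178 CPM in KO muscle, against 199, 142, 353, 195 and 262 CPM in WT muscle (-0.83 ± 0.17, adjusted p = 0.0001683). Cox8a had 28.7, 40.1 and 42.5 CPM in KO muscle, against 29.98, 23.1, 40.04, 22.9 and 27.5 CPM in WT muscle (0.41 ± 0.13, adjusted p = 0.007454). Both overlapped between genotypes. The call of Cox8b was lost with pool A alone, and that of Cox8a with pool B alone (0.23), in a fit of the 8-week groups only (0.39) and without the rRNA-rich libraries (0.31). With library sizes alone Cox6a1 (1.496) and Cox8a (1.22) were called higher, and Cox6a2 (-0.41), Cox7a1 (-0.29) and Cox8b (-0.09) were not called.

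**Figure D3:**
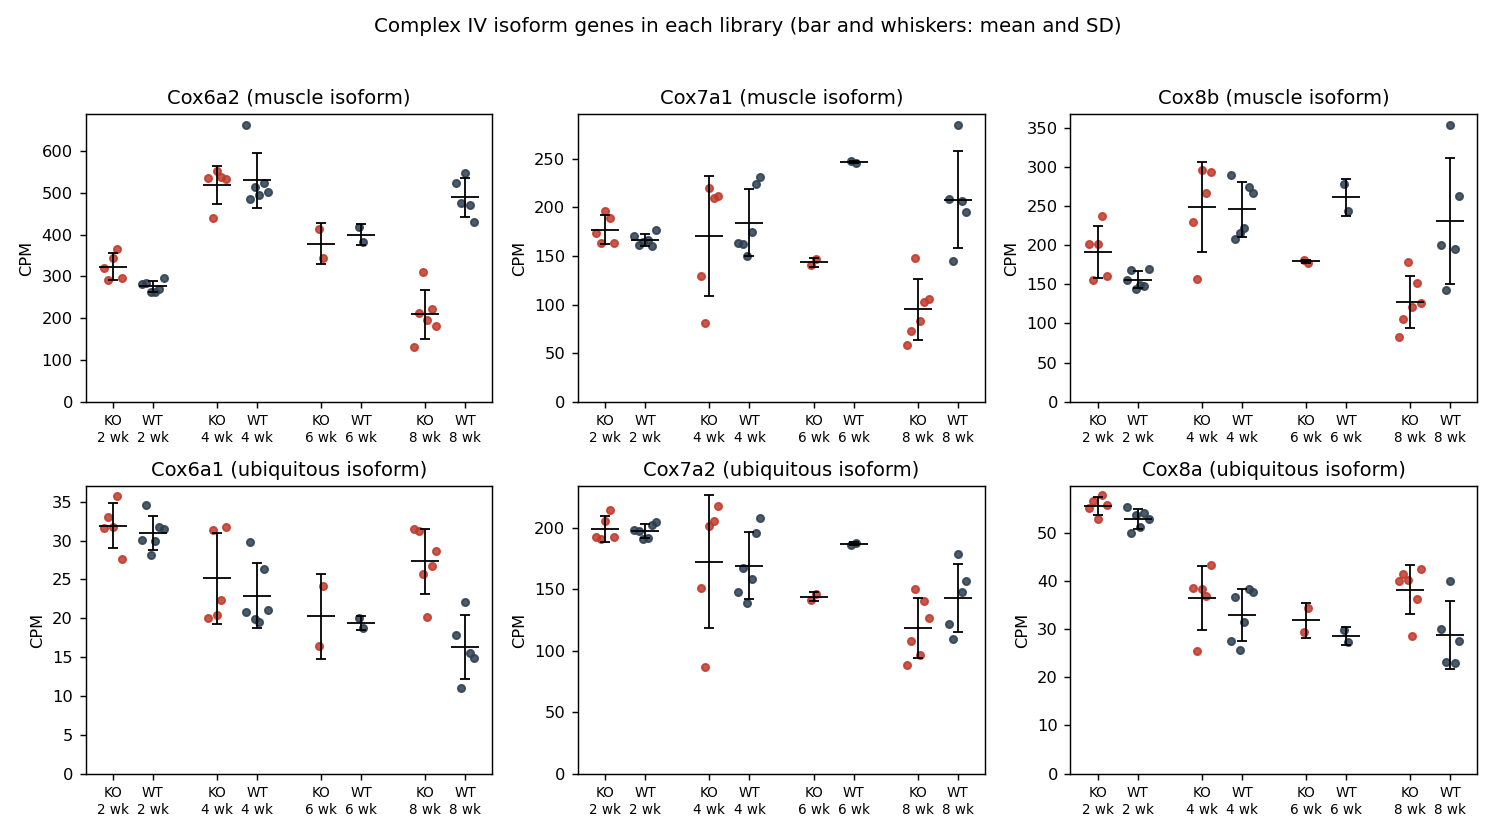
CPM of the muscle isoforms Cox6a2, Cox7a1 and Cox8b and of their ubiquitous partners Cox6a1, Cox7a2 and Cox8a, 1 point per library, KO (red) left of WT (dark) at each age, with bars and whiskers at the mean and SD; each panel has its own CPM axis. At 8 weeks the KO points lie at 132 to 311 CPM for Cox6a2, below all WT points, and at 20.2 to 31.5 CPM for Cox6a1, where WT points lie at 11.1 to 22.2 CPM.

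The ratio of a muscle isoform to its partner within 1 library does not depend on the scaling between libraries. At 8 weeks the log2 ratio of Cox6a2 to Cox6a1 was 2.91 ± 0.53 in KO (SD, n = 6) and 4.93 ± 0.29 in WT muscle (SD, n = 5), a difference of -2.03. The log2 ratio of Cox7a1 to Cox7a2 was -0.35 ± 0.23 in KO and 0.53 ± 0.19 in WT muscle (-0.88), and that of Cox8b to Cox8a was 1.71 ± 0.45 in KO and 2.96 ± 0.28 in WT muscle (-1.26). In each pair all 6 KO libraries lay below all 5 WT libraries; the two-sided exact permutation p was 0.00216 each, the smallest that 462 arrangements allow, and 0.00649 after adjustment over the 9 ratios tested. Within pools A and B the differences were -2.33 and -1.80 for Cox6a2 to Cox6a1, -0.98 and -0.80 for Cox7a1 to Cox7a2, and -1.16 and -1.26 for Cox8b to Cox8a. Pool A held 3 KO and 2 WT libraries at 8 weeks, and pool B 3 of each. The WT libraries of pool A were the rRNA-rich WT 34 and WT 35. They had only 41 and 36 counts of Cox6a1 and 69 and 75 counts of Cox8a. As a share of the pair's CPM per transcript length, Cox6a2 made up 85.8% ± 4.64 in KO and 96.2% ± 0.687 in WT muscle, Cox7a1 56.7% ± 3.81 in KO and 70.7% ± 2.69 in WT, and Cox8b 82.9% ± 4.57 in KO and 92.2% ± 1.39 in WT (SD, n = 6 KO and 5 WT libraries).

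At the earlier ages the differences in these ratios were smaller. At 2 weeks the log2 ratio of Cox6a2 to Cox6a1 was 0.18 higher in KO muscle (exact permutation p = 0.0152, adjusted p = 0.0341), but the adjusted p passed 0.05 when any of 10 of the 11 libraries was left out. At 4 weeks the KO minus WT differences were -0.15 for Cox6a2 to Cox6a1 (adjusted exact permutation p = 0.526), -0.16 for Cox7a1 to Cox7a2 (adjusted p = 0.0701, and 0.048 when permuted within pools) and -0.15 for Cox8b to Cox8a (adjusted p = 0.394). Within pools A and B these 4-week differences were -0.29 and -0.05 for Cox6a2 to Cox6a1, -0.23 and -0.12 for Cox7a1 to Cox7a2, and -0.39 and 0.03 for Cox8b to Cox8a, and the first ratio was 0.06 higher in KO muscle without the rRNA-rich libraries. At 6 weeks, where 2 libraries against 2 cannot give an exact permutation p below 0.333, they were -0.13, -0.40 and -0.69 in the same order. With 1 library of each genotype per pool, the 6-week differences in pools A and B were -0.55 and 0.30 for Cox6a2 to Cox6a1, -0.40 and -0.40 for Cox7a1 to Cox7a2, and -0.85 and -0.54 for Cox8b to Cox8a. Both KO libraries lay below both WT libraries at 6 weeks for the pairs of Cox7a1 and of Cox8b, and not for that of Cox6a2.

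**Figure D4:**
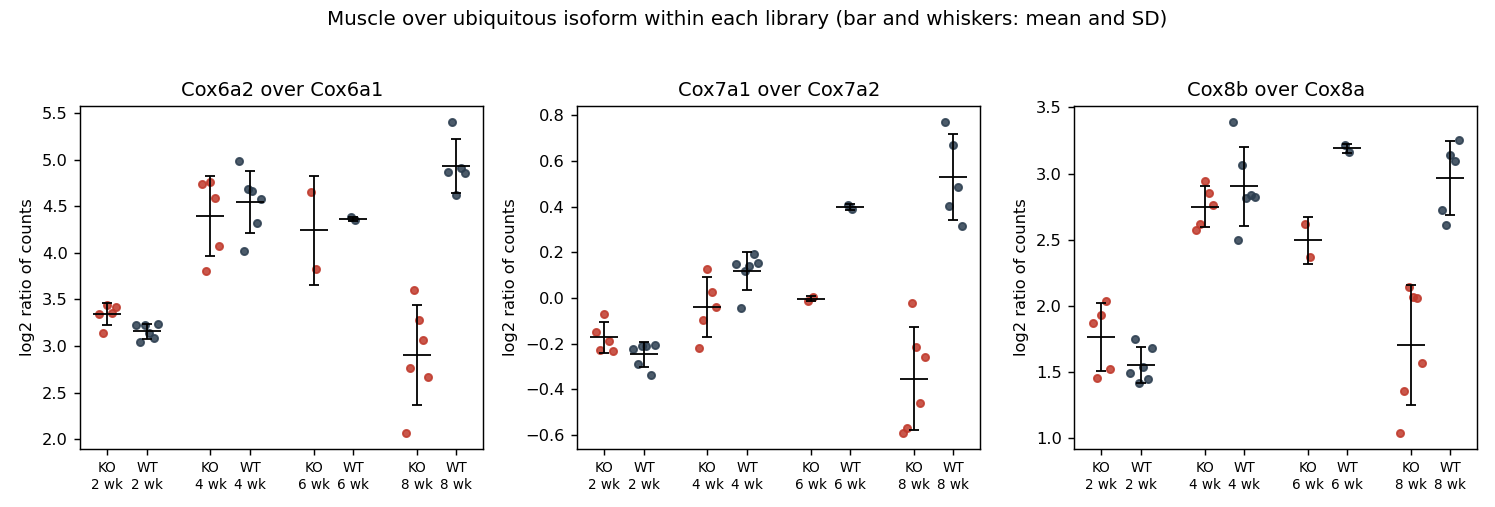
Log2 ratio of muscle to ubiquitous isoform in each library for the 3 pairs, KO (red) left of WT (dark) at each age, with bars and whiskers at the mean and SD. At 8 weeks every KO point lies below every WT point in each pair, while the points overlap at 2 and 4 weeks.

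Levels of different members were compared as CPM per kilobase of principal transcript (a level, not a difference). In complex III Uqcrc1 was the highest, at 329 ± 71.6 in KO (SD, n = 6) and 469 ± 75.0 in 8-week WT muscle (SD, n = 5), and Uqcrq the lowest, at 62.0 ± 10.6 in KO and 84.7 ± 11.4 in WT muscle. Uqcrh, next to Uqcrc1, stood at 329 ± 83.2 in KO and 433 ± 49.3 in WT muscle and overlaps it within 1 SD in each genotype. In complex IV Cox6a2 was the highest in WT muscle, with Cox4i1 next. Cox6a2 stood at 308 ± 87.1 in KO and 720 ± 68.2 in WT muscle, and Cox4i1 at 445 ± 101 in KO and 646 ± 132 in WT muscle. These neighbours overlap within 1 SD in each genotype. Cox4i2 was the lowest of complex IV, at 1.32 ± 0.13 in KO and 2.43 ± 1.77 in WT muscle. In complex V Atp5b was the highest, at 1106 ± 226 in KO and 1588 ± 176 in WT muscle, followed by Atp5a1 at 665 ± 113 in KO and 1020 ± 141 in WT muscle, and Atp5s was the lowest, at 3.68 ± 0.193 in KO and 7.30 ± 1.22 in WT muscle. Transcript lengths come from GENCODE; those of Uqcrq (1521 bases) and Atp5g1 (4715 bases) are long beside those of other small subunits, which lowers their place.

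In WT muscle between 2 and 4 weeks 16 members were called higher and 2 lower, against 24.2% of all genes higher and 23.6% lower. The direction depended on the scaling: with library sizes alone 0 members were called higher and 8 lower, and with RLE factors 9 higher and 2 lower. The higher genes were led by Cox6a2 (0.93), Cox8b (0.68), Atp5s (0.66), Cox6c (0.65) and Uqcrb (0.56). The lower genes were the ubiquitous isoforms Cox8a (-0.67 ± 0.12, edgeR adjusted p = 2.282e-05) and Cox6a1 (-0.45 ± 0.13, adjusted p = 0.005909). In the remaining isoform pair neither Cox7a1 (0.17) nor Cox7a2 (-0.20) was called. Cox8a had 25.7, 34.04 and 38.3 CPM as lowest, median and highest in 4-week WT muscle, against 49.9, 53.2 and 55.4 CPM in 2-week WT muscle, with no overlap. With pool A alone 3 members were called.

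In KO muscle between 2 and 4 weeks 4 members were called higher (Cox6a2 0.71, Atp5s 0.68, Uqcrc1 0.43 and Uqcrb 0.37) and 1 lower (Cox8a -0.61), against 20.3% of all genes higher and 18% lower. This count moved with the libraries used and with the scaling. Without KO 8, in which ribosomal RNA took 29.3% of the counts, 15 members were called higher and 1 lower. Without KO 31 there were 2 higher and 1 lower. With library sizes alone 0 were called higher and 18 lower. The shares of all genes given above are those of the TMM fit of all libraries. The knockout effect at 4 weeks minus that at 2 weeks was called for 0 members and, in each direction, for 0% of all genes.

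Between 4 and 8 weeks most members fell in KO muscle and few changed in WT muscle, with TMM scaling and both pools. In KO muscle 35 members were called lower at 8 than at 4 weeks and 0 higher (with library sizes alone 1 lower and 2 higher, and with pool A alone 2 lower), against 21.5% of all genes lower and 23.1% higher, and the members' median log2 fold change was -0.60. Cox6a2 (-1.32), Cox4i2 (-1.01) and Cox8b (-0.94) had the lowest values. Of the ubiquitous isoforms, Cox7a2 was called lower in that comparison (-0.50 ± 0.14, edgeR adjusted p = 0.00448), while Cox6a1 and Cox8a were not called. In WT muscle 1 member was called higher (Atp5s, 0.49 ± 0.11, edgeR adjusted p = 0.001894) and 1 lower (Cox6a1, -0.45 ± 0.15, adjusted p = 0.03563), against 7.8% of all genes higher and 7.59% lower, with a members' median of -0.12. The call of Cox6a1 was lost when WT 2, WT 5, WT 34, WT 35, WT 37 or WT 38 was left out.

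The difference itself, the knockout effect at 8 weeks minus that at 4 weeks, was called lower for 16 members and higher for 1 (with library sizes alone 0 lower and 2 higher), against 13.8% of all genes lower and 13.5% higher. Cox6a2 (-1.21 ± 0.18, edgeR adjusted p = 1.162e-05), Cox7a1 (-0.94 ± 0.26, adjusted p = 0.006797), Cox8b (-0.82 ± 0.25, adjusted p = 0.01257), Atp5s (-0.80 ± 0.15, adjusted p = 0.0002496) and Cox5a (-0.76 ± 0.17, adjusted p = 0.001464) had the lowest values among the members called; Cox4i2 (-0.84 ± 0.43, adjusted p = 0.143) was not called. Cox6a1 was the member called higher (0.57 ± 0.20, adjusted p = 0.0366). The count was 32 without KO 8 or without KO 41, 10 without KO 7, 0 with pool A alone and 28 with pool B alone. The shares of all genes above belong to the TMM fit of all libraries, not to these refits.

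Other genes of oxidative metabolism were also mostly lower at 8 weeks with TMM, again a direction that library sizes alone did not keep. Beside the 8-week counts of this and the following lists stand 26.3% of all genes called lower and 26.2% higher with TMM. Beside their counts with library sizes alone stands a median log2 fold change of 0.82 for all genes in that setting. Of 36 complex I subunit genes 33 were called lower in KO muscle and none higher (0 lower and 3 higher with library sizes alone), with a median of -0.62. At 6 weeks 7 were called lower, against 4.34% of all genes. At 2 and 4 weeks 0 were called lower, against 0.0239% and 3.19% of all genes. Ndufs6 (-0.96 ± 0.10, edgeR adjusted p = 3.863e-09) and Ndufa1 (-1.03 ± 0.12, adjusted p = 7.175e-09), both accessory subunits, had the smallest adjusted p of that list. Of 5 genes of complex II and cytochrome c 4 were called lower (0 lower and 1 higher with library sizes alone), among them Cycs, the carrier between complexes III and IV (-0.72), and Sdha, the flavoprotein of complex II (-0.68); Sdhd (-0.16) was not called.

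Of 30 tested assembly factors of complexes III, IV and V 13 were called lower and 1 higher at 8 weeks (0 lower and 16 higher with library sizes alone). Of all genes 26.3% were called lower and 26.2% higher with TMM. With library sizes alone the median log2 fold change was 0.49 for the assembly factors and 0.82 for all genes. The 4 assembly factors with the smallest p were Coa7 (-0.72), a factor of complex IV assembly, and Uqcc1 (-0.57), Ttc19 (-0.47) and Bcs1l (-0.64), which act in complex III assembly. Cox18 (0.32) was the assembly factor called higher, a call lost without WT 36, and Surf1 (-0.10) was not called. The assembly factors Pet117 and Sco2 were at 0 in every library.

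Of the 6 subunits of these complexes encoded in mitochondrial DNA, mt-Co1 and mt-Cytb could be tested. The cytochrome c oxidase subunit mt-Co1 had 9718, 12473 and 16452 CPM as lowest, median and highest in KO muscle at 8 weeks, against a lowest, median and highest of 25697, 29622 and 37689 CPM in WT muscle, with no overlap (-1.26 ± 0.18, edgeR adjusted p = 3.841e-07). Cytochrome b of complex III, mt-Cytb, had 1450, 1708 and 2390 CPM in KO muscle, against 3152, 7525 and 9988 CPM in WT muscle, also with no overlap (-1.78 ± 0.26, adjusted p = 1.186e-06). With library sizes alone 1 of these genes was called lower. At 8 weeks mt-Co3, mt-Atp6 and mt-Atp8 were listed at 0 in every library and mt-Co2 had at most 0.0579 CPM in any. The counting settings are not given in the sources used here, so these values cannot be read as absence of the RNA. How the counting bears on mt-Co1 and mt-Cytb was not tested.

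Among 14 regulators of nuclear respiratory genes 9 were called lower in KO muscle at 8 weeks and none higher (2 lower and 6 higher with library sizes alone). The 4 with the smallest p were the fatty acid oxidation regulator Ppara (-1.60 ± 0.22, edgeR adjusted p = 2.794e-07), the muscle regulator Perm1 (-1.05 ± 0.15, adjusted p = 4.328e-07), the muscle transcription factor Mef2c (-0.75 ± 0.11, adjusted p = 1.876e-06) and the nuclear receptor Esrrb (-1.92 ± 0.32, adjusted p = 1.172e-05). The coactivator Ppargc1a (-1.02 ± 0.24, adjusted p = 0.0006276) and Esrra, whose product binds the ERR site searched above (-0.66 ± 0.12, adjusted p = 3.997e-05), were also lower. Nrf1, the factor behind the NRF1 core, had a log2 fold change of 0.06 and was not called. Gabpa, whose product binds the ETS motif, had a mean of 36.9 CPM in KO and 51.4 CPM in WT muscle, and it overlaps Atp5j on the other strand.

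Some markers of other cells also differed between KO and WT muscle. All 11 macrophage markers were called higher at 8 weeks (11 also with library sizes alone). Their summed level was 835 to 1886 CPM in KO and 106 to 148 CPM in WT muscle. At 4 weeks 5 of these markers were called higher and at 6 weeks 4, against 2.46% and 5.33% of all genes. At 6 weeks the summed level of the macrophage markers was 148 CPM in KO 19 and 1406 CPM in KO 20, against 152 and 172 CPM in the WT libraries. Thus 1 KO library was high and the other below both WT libraries. At 4 weeks it ran from 91.8 to 513 CPM in KO and from 77.4 to 156 CPM in WT muscle, with KO 10 and KO 11 inside the WT range. All 3 developmental myosins were called higher at 8 weeks (3 with library sizes alone) and at 6 weeks, with a summed level at 8 weeks of 336 to 1670 CPM in KO and 14.6 to 57.3 CPM in WT muscle. Of 8 fibroblast markers 4 were called higher and 1 lower at 8 weeks (7 higher and 0 lower with library sizes alone, 4 higher and 3 lower without WT 36), with summed levels of 4386 to 8198 CPM in KO and 2798 to 3734 CPM in WT muscle. Of 8 lymphocyte markers 1 was called higher (0 higher and 1 lower without WT 36), with summed levels of 1.60 to 4.04 CPM in KO and 1.22 to 2.96 CPM in WT muscle, where Cd3g was at 0.

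Markers of the muscle fibre and of vessels, nerve and blood were mostly lower at 8 weeks with TMM. Of 11 fast fibre markers 10 were called lower (1 lower and 1 higher with library sizes alone; summed level 29650 to 97298 CPM in KO, 45420 to 148909 CPM in WT muscle). The lowest WT value is WT 36; the other WT libraries lay between 128235 and 148909 CPM, above every KO library, and 10 markers were called lower without it. Of 9 slow fibre markers 8 were called lower (5 with library sizes alone; 1021 to 1677 CPM in KO, 800 to 26137 CPM in WT muscle). The highest WT value is again WT 36; the other WT libraries averaged 1677 ± 634 CPM (SD, n = 4), against 1267 ± 244 CPM in KO muscle (SD, n = 6), and without WT 36 there were 5 markers called lower and 1 higher. All 5 endothelial markers were called lower (0 with library sizes alone; 208 to 257 CPM in KO, 268 to 465 CPM in WT muscle). All 5 Schwann cell and nerve markers (4 with library sizes alone; 21.1 to 69.9 CPM in KO, 65.9 to 319 CPM in WT muscle) and all 5 erythroid markers (1 with library sizes alone; 18.5 to 42.6 CPM in KO, 40.7 to 122 CPM in WT muscle) were called lower. Of 8 pericyte and smooth muscle markers 5 were called lower and 1 higher (1 lower and 3 higher with library sizes alone; 662 to 851 CPM in KO, 1058 to 1369 CPM in WT muscle). Of 6 adipocyte markers 4 were called lower (0 with library sizes alone; 83.4 to 185 CPM in KO, 142 to 368 CPM in WT muscle), and Ucp1 was at 0 in all 8-week libraries. WT 36 was also the highest WT library in these last lists of vessel, nerve, blood and fat markers; without it 5 endothelial, 5 Schwann cell and nerve, 5 erythroid, 5 pericyte and smooth muscle and 1 adipocyte marker were called lower. The part of these cells in the members' differences was not tested.

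**Figure D5:**
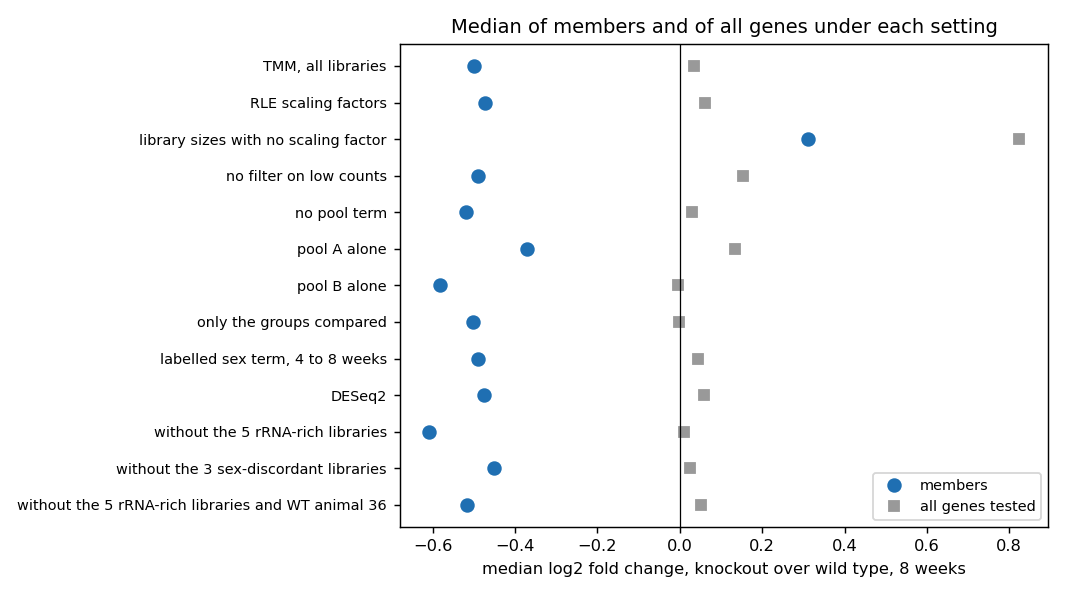
Median log2 fold change, KO over WT, at 8 weeks under each alternative setting; blue circles are the 41 members and grey squares all genes tested. With library sizes alone both medians move up (0.31 for members and 0.82 for all genes), so that the direction of the members turns while the members' median stays below that of all genes.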

How the data were processed

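Messenger and other RNA of 37 gastrocnemius libraries was sequenced in paired ends of 38 bases after RNeasy extraction and a stranded, ribosome-depleted (Ribo-Zero Gold) preparation, per the labels. The deposited values are raw counts for each Ensembl gene, which the authors did not normalize. The submitters' processing notes name the build mm10 and the tools edgeR 3.22.0, featureCounts 1.5.2 and STAR 2.5.2b; the annotation, the strand setting and whether reads or pairs were counted are not given in the sources used here. Symbols came from GENCODE vM21, in which 50462 of the 50686 identifiers had a match.

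From these counts, genes were filtered with edgeR's filterByExpr (minimum count 10, minimum total 15), scaled with TMM and fitted in 1 quasi-likelihood model (edgeR 4.0.16, R 4.3.3, robust) over all 37 libraries with a term per genotype and age and a term for the pool; DESeq2 1.42.0 was an alternative. CPM use the TMM factors. A fold change is a log2 value, KO over WT unless other groups are named, and its SE is the fold change divided by the square root of F. Isoform ratios were log2 values after adding 0.5 to each count, and genotypes were compared by exact permutation (two-sided). The fit was also run on simulated counts with few genes changed and no effect of age or pool, unlike these data. That run is not used as support here. Members, lists and tests were chosen with earlier results of these data known. Alternatives were other scalings, no filter, no pool term, each pool, a sex term, the compared groups alone and libraries left out. Shares of all genes called are those of the main fit, also where they stand beside counts from an alternative. Named genes are Nampt, the isoform genes, up to 5 called members per complex, age and direction by p, the highest and lowest member of a complex by level per length, members left out or not called, and up to 4 genes per other list by p; any others were chosen after their values were seen.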

Additional observations from a re-analysis of the deposited data

Results flagged for a closer look

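For each member, Nampt and each isoform ratio, every group of 5 or 6 libraries was screened, which gave 270 sets of values. Of these, 16 held a library far from the others by Dixon's test, which chance flags in about 1 of 20 sets. At 4 weeks KO 8, in which ribosomal RNA took 29.3% of the counts, was far below the other KO libraries in Atp5b (2417 CPM), Atp5c1 (403 CPM), Cox4i2 (0 CPM), Cox6a2 (440.1 CPM), Uqcrc1 (567 CPM), Uqcrc2 (295 CPM) and Uqcrfs1 (231 CPM). WT 1 at 4 weeks was far above the other WT libraries in Cox6a2 (662 CPM). It stood apart also in Uqcrb (249 CPM, the highest) and Cox5a (181 CPM, the lowest). WT 2 at 4 weeks had the lowest log2 ratio of Cox7a1 to Cox7a2 (-0.046). At 2 weeks KO 30 stood apart in Cox7a2l (72.4 CPM) and WT 32 in Uqcr11 (190.3 CPM) and Uqcrh (267 CPM). At 8 weeks KO 43 stood apart in Nampt (56.0 CPM) and WT 36, the library high in slow fibre markers, in Uqcrq (159 CPM).

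The knockout effect on 17 members differed between 8 and 4 weeks by the test of the difference within the model (edgeR). In complex III the differences were -0.58 for Uqcrb, -0.48 for Uqcrc1, -0.49 for Uqcrc2, -0.58 for Uqcrfs1 and -0.53 for Uqcrq. In complex IV they were -0.76 for Cox5a, 0.57 for Cox6a1, -1.21 for Cox6a2, -0.94 for Cox7a1, -0.56 for Cox7c and -0.82 for Cox8b. In complex V they were -0.67 for Atp5a1, -0.56 for Atp5b, -0.60 for Atp5c1, -0.57 for Atp5g1, -0.57 for Atp5j and -0.80 for Atp5s. How the count of these genes moves without KO 7, KO 8 or KO 41 and by pool is given with the main result.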

How the results depend on the processing

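With library sizes alone 5 members were called at 8 weeks in KO over WT muscle, against 36 with TMM. That setting gave 0 at 6 weeks (3 with TMM), 2 for the knockout effect at 8 minus 4 weeks (17), 8 for WT 4 over 2 weeks (18), 0 for WT 8 over 4 weeks (2), 18 for KO 4 over 2 weeks (5) and 3 for KO 8 over 4 weeks (35). It turned the direction at 8 weeks of Cox5b (0.29), Cox5a (0.11), Cox4i1 (0.30), Cox6b1 (0.34), Cox7b (0.25), Cox7c (0.22), Uqcrb (0.10), Uqcrc1 (0.31), Uqcrc2 (0.31), Uqcrfs1 (0.24), Uqcrh (0.44), Uqcrq (0.35), Uqcr10 (0.44), Uqcr11 (0.29), Cyc1 (0.41), Atp5a1 (0.22), Atp5b (0.31), Atp5c1 (0.12), Atp5d (0.55), Atp5f1 (0.35), Atp5g1 (0.32), Atp5g2 (0.43), Atp5g3 (0.33), Atp5h (0.27), Atp5j (0.17), Atp5j2 (0.49), Atp5k (0.12) and Atp5o (0.39). The median of all genes was 0.82 in that setting.

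Pool A alone gave 7 members called at 8 weeks, 1 at 6 weeks, 0 for the effect at 8 minus 4 weeks, 3 for WT 4 over 2 weeks, 0 for WT 8 over 4 weeks, 3 for KO 4 over 2 weeks and 2 for KO 8 over 4 weeks. Pool B alone gave 0 at 6 weeks, 28 for the effect at 8 minus 4 weeks, 1 for WT 8 over 4 weeks and 10 for KO 4 over 2 weeks. RLE factors gave 1 at 4 weeks and 11 for WT 4 over 2 weeks. A fit of the groups compared gave 0 at 6 weeks and 9 for the effect at 8 minus 4 weeks, a term for labelled sex 1 and 10, and DESeq2 7 at 6 weeks and 1 at 4 weeks. Leaving out the pool term gave 11 for KO 4 over 2 weeks. Leaving out the rRNA-rich libraries gave 1 at 4 weeks, 9 at 6 weeks, 29 for the effect at 8 minus 4 weeks, 1 for WT 8 over 4 weeks and 17 for KO 4 over 2 weeks, and leaving out the sex-discordant ones gave 9 for the effect at 8 minus 4 weeks. The other alternatives gave 28 to 37 at 8 weeks, among them 1 chosen after seeing the data, without the rRNA-rich libraries and WT 36 (33). The counts of other lists under library sizes alone and without WT 36 were also added after seeing the data.

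Leaving out 1 library at a time gave 0 to 1 at 4 weeks, 0 to 1 at 6 weeks, 31 to 37 at 8 weeks, 10 to 32 for the effect at 8 minus 4 weeks, 1 to 3 for WT 8 over 4 weeks and 3 to 16 for KO 4 over 2 weeks. For the log2 ratio of Cox6a2 to Cox6a1 it gave 0.156 to 0.232 at 2 weeks and -0.536 to 0.285 at 6 weeks, reversed without KO 20 (0.285), and for Cox7a1 to Cox7a2 -0.199 to -0.112 at 4 weeks. Without the rRNA-rich libraries the first ratio was 0.0622 at 4 weeks. Permuting within pools gave an adjusted exact permutation p of 0.048 for Cox7a1 to Cox7a2 at 4 weeks (-0.157). The causes were not tested. No paired analysis was possible because the library numbers are unique to each library. Low counts limit Cox4i2, at 0 to 3.59 CPM.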
